A study of Mus musculus with 3 samples.

Results

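The genes described here are 8 members of the PERK, ATF4 and CHOP branch of the unfolded protein response: the transcription factor genes Atf4, Atf5, Ddit3, Atf3 and Cebpb, the amino acid genes Psat1 and Aars, and Gdf15, which encodes a secreted protein. They were chosen by name, and each row bearing that name was taken from the authors' tables of beta, alpha and delta cells, which together hold 8237 genes. All 8 were listed in beta cells, Cebpb also in alpha cells, and none in delta cells. The authors listed a gene only where their own test called it different, so a member's presence in a table is no result. Values of a member in a table that does not list it were not analysed here.

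Pancreatic islets came from 2 knockout (KO) mice labelled IRE1αβ-/- and from 1 control (WT) mouse labelled IRE1αfl/fl, all NOD/ShiLtJ and 5 weeks old. IRE1α, encoded by Ern1, is a kinase and RNase of the endoplasmic reticulum (ER) membrane, and the study set out to delete it in beta cells. The protocols describe tamoxifen injections (10 mg per ml, on 5 days) to switch on the Cre recombinase. The labels give that protocol for all 3 mice, and the driver of Cre is not given in the sources used here. NOD mice develop autoimmune diabetes spontaneously. Islets were cultured overnight, dissociated and sequenced as single cells in droplets, where each unique molecular identifier (UMI) stands for 1 captured transcript.

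When unfolded proteins build up in the ER, the kinase PERK phosphorylates the translation factor eIF2α, which slows protein synthesis in general while the mRNAs of ATF4 and ATF5 are translated more. ATF4 then switches on genes for amino acid uptake, amino acid synthesis and the charging of tRNAs, and, together with CHOP (the product of Ddit3), ATF3 and C/EBPβ (the product of Cebpb), genes of a terminal stress response. Because ATF4 and ATF5 are controlled strongly at translation, their mRNA need not follow their protein. Beta cells, which make large amounts of proinsulin, depend on PERK, and IRE1α acts beside it as another sensor of the same stress.

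In beta cells the branch did not shift as a unit. Atf3 and Gdf15 were about 4 times as abundant in KO as in WT beta cells, with ratios of 3.94 and 4.29, whereas Psat1 was lower at a ratio of 0.534. Atf4, Atf5 and Aars lay within 1.11-fold of WT, and Ddit3 and Cebpb between them and the high pair, at 1.26 and 1.34. A ratio here is KO over WT, in mean UMIs per cell, and intervals in brackets are exact 95% intervals that cover counting error only. By a fold of at least 1.5, 2 members were higher and 1 was lower, where 45.7% of all 8193 listed genes were higher and 2.47% lower by that fold. With 1 WT mouse, and the cells of both KO mice pooled in this table, no difference in beta cells had a check against the spread between mice.

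The values rest on 815 KO and 829 WT beta cells, for which the listed genes summed to 24796 UMIs per KO cell and 31552 per WT cell. Most listed genes were higher per cell in the KO: 7780 of 8193 had a ratio above 1, and the median ratio was 1.45, a log2 value of 0.54. Rare genes had larger ratios. The median was 3.45 for the 784 genes below 0.03 UMIs per WT cell, 1.95 for genes at 0.03 to 0.1 and 1.1 for those at 3 to 10. Each member is therefore also set beside the listed genes whose WT level lay within 1.5-fold of its own. The targeted gene was not lower: Ern1 had 0.742 UMIs per KO cell and 0.509 per WT cell, a ratio of 1.46 [1.29 to 1.66]. Xbp1, whose mRNA IRE1α splices, was at 5.25 in KO and 3.51 in WT cells. Relative to the median of all listed genes the log2 values were 0.0040 for Ern1 and 0.042 for Xbp1. Which exons were removed is not given in the sources used here, so the labels are used as the submitters gave them.

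Sequence from just upstream of the start site is shown for the members at the ends of the range and for Aars, because ATF4 with its C/EBP partners is known to bind a composite site, the C/EBP-ATF response element (CARE). The 250 bases before the start site were taken from RefSeq (GRCm38.p6, the mm10 assembly) for all 8 members, at the most upstream RefSeq start site in the table where a gene has several. The GENCODE gene spans given with the values begin farther upstream than these windows for Atf3, Psat1 and Aars. Capitals mark matches on either strand to the CARE letters TGATGNAA and to ACGTCA, the core of the cyclic AMP response element that ATF factors bind; the 2 motifs did not overlap.
Atf3, chr1:191183334-191183583, minus strand: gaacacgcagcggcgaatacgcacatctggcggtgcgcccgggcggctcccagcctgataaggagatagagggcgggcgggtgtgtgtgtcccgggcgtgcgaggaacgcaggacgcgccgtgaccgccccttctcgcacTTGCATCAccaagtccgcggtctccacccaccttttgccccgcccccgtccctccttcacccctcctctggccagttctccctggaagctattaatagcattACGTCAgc
Gdf15, chr8:70632457-70632706, minus strand: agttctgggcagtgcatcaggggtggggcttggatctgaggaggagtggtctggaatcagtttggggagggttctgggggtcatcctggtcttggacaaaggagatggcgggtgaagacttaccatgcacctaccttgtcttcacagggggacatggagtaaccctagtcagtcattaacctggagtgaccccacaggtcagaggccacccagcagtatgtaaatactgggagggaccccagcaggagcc
Psat1, chr19:15925060-15925309, minus strand: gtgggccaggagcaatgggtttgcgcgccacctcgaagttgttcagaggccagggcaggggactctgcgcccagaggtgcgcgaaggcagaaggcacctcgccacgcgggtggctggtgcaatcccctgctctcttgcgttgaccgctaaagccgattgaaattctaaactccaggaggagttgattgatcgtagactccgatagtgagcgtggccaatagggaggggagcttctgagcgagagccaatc
Aars, chr8:111033592-111033841, plus strand: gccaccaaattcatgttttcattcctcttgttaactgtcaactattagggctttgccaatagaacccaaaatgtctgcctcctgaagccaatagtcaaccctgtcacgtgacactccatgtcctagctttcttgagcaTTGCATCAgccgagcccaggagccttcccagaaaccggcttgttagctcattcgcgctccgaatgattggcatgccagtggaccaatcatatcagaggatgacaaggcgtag
A CARE match stood in 2 of the 8 windows, those of Atf3 (first base at -110 from the start site) and Aars (-112), against 3.45% of all 32851 RefSeq windows of this length. In both genes the matched letters were TTGCATCA, the CARE read on the other strand. The core ACGTCA stood in 1 window, that of Atf3 (-8), against 6.47% of all windows. The ER stress element in its full spaced form, which ATF6 and its partners bind, matched none of the 8 windows and 0.113% of all windows. Matches are descriptions of these letters. The ratios of Atf3 and Aars, the genes with a CARE match, were 3.94 and 1.04. Whether the match bears on either ratio was not tested.

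**Figure D1:**
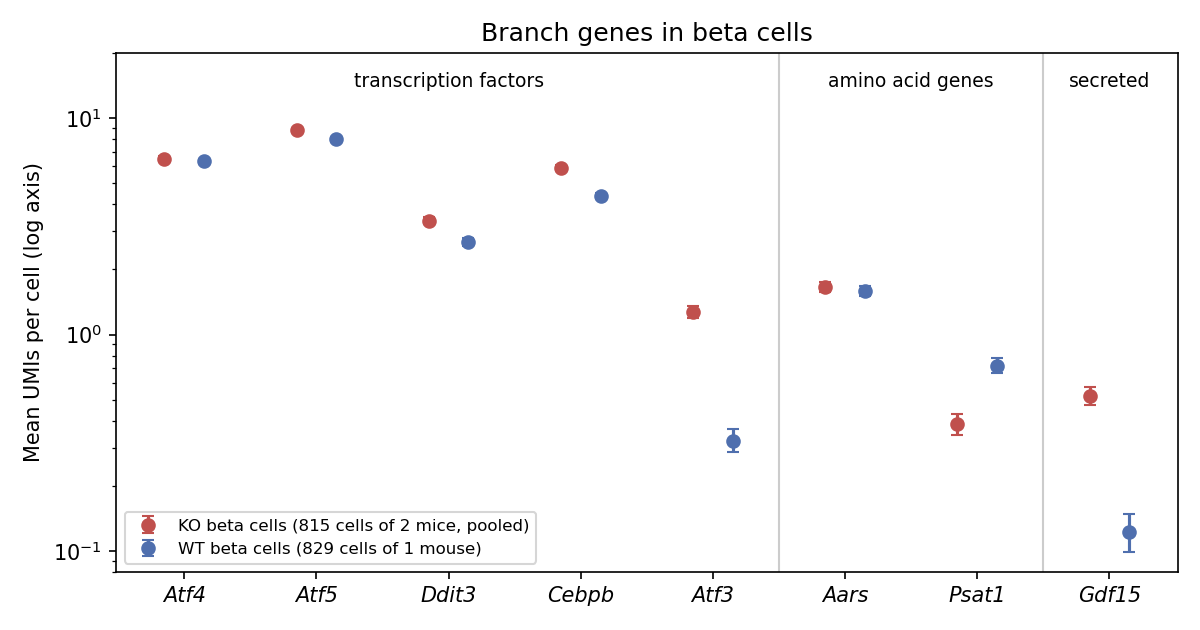
Mean UMIs per cell of the 8 members in KO (red) and WT (blue) beta cells, on a log axis, with exact 95% Poisson intervals of counting error (for the abundant genes smaller than the points). Atf3 and Gdf15 stand higher in KO than in WT cells, Psat1 stands lower, and the points of Atf4, Atf5 and Aars lie close together.

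Atf4 (ENSMUSG00000042406, mm10 chromosome 15, 80255184 to 80257541), the central factor of the branch, had 6.503 UMIs per KO beta cell [6.33 to 6.68] and 6.31 per WT beta cell [6.14 to 6.48]. Its ratio of 1.03 [0.992 to 1.07] had an interval that included 1. Atf5 (ENSMUSG00000038539, chromosome 7, 44812256 to 44816658), a close relative of Atf4 that is induced through the same translational switch, had 8.84 UMIs per KO cell and 7.98 per WT cell, a ratio of 1.11 [1.07 to 1.15]. Both lay near the middle of listed genes of similar WT level: 40.2% of 179 such genes had a lower ratio than Atf4, and 51.8% of 137 a lower ratio than Atf5. The authors' deposited table nevertheless lists Atf4 with an adjusted p of 5.04e-17 and Atf5 with 2.75e-19; which test and which scaling gave these is not given in the sources used here.

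Ddit3 (ENSMUSG00000025408, chromosome 10, 127290774 to 127296288) encodes CHOP, which ATF4 induces and which promotes cell death when stress persists. It had 3.35 UMIs per KO cell [3.23 to 3.48] and 2.67 per WT cell [2.56 to 2.78], a ratio of 1.26 [1.19 to 1.33]. Cebpb (ENSMUSG00000056501, chromosome 2, 167688915 to 167690418), a basic leucine zipper factor that pairs with ATF4 and CHOP and also responds to cytokines, had 5.88 UMIs per KO cell [5.72 to 6.05] and 4.38 per WT cell [4.24 to 4.52], a ratio of 1.34 [1.29 to 1.40]. The counting intervals of KO and WT did not overlap for either gene. Among listed genes of similar WT level, 66.8% of 437 had a lower ratio than Ddit3 and 80.9% of 256 a lower ratio than Cebpb. By UMIs per cell both ratios were under 1.5 and under the median of all listed genes. After scaling to the listed UMI total both passed the fold of 1.5, with log2 values of 0.68 for Ddit3 and 0.77 for Cebpb.

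Atf3 (ENSMUSG00000026628, chromosome 1, 191170296 to 191218039) stood apart from the other factor genes. It encodes a stress-inducible ATF family factor that is also a classic immediate early gene and a p53 target. It had 1.27 UMIs per KO cell [1.20 to 1.35] and 0.323 per WT cell [0.286 to 0.364], from 1039 and 268 UMIs, a ratio of 3.94 [3.44 to 4.53]. It was the 386th highest ratio of the 8193 listed genes, and 99.8% of the 1984 listed genes of similar WT level had a lower ratio. Over the 5 factor genes together, KO cells held 25.9 UMIs and WT cells 21.7, a ratio of 1.19 [1.17 to 1.22].

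Gdf15 (ENSMUSG00000038508, chromosome 8, 70629393 to 70632456) encodes growth differentiation factor 15, a circulating stress cytokine of the TGFβ superfamily that both CHOP and p53 can induce. It had 0.523 UMIs per KO cell [0.474 to 0.575] and 0.122 per WT cell [0.0992 to 0.148], from 426 and 101 UMIs. Its ratio of 4.29 [3.45 to 5.38] was the 324th highest of all listed genes. The interval overlapped that of Atf3, and with a pseudocount of 0.0519 UMIs per cell Gdf15 had a log2 ratio of 1.73 and Atf3 one of 1.82, the reverse order. Of the 1396 listed genes of similar WT level, 99.5% had a lower ratio.

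Atf3 and Gdf15 also belong to other programmes, whose listed genes moved in the same direction. Of 14 p53 target genes, 13 were listed, and all 13 were higher in KO cells by at least 1.5-fold, where 45.7% of all listed genes were. All 13 also lay above the median of all listed genes. Apart from Atf3 and Gdf15, the other 11 listed p53 targets had a median log2 ratio of 1.12, with Phlda3 at 6.53 [5.39 to 7.98] and Cdkn1a, the cell cycle inhibitor p21, at 2.17 [2.06 to 2.29]. Immediate early genes are switched on within minutes by many stimuli, the dissociation of a tissue among them. Of 21 such genes 18 were listed, all higher per KO cell, 15 of them by at least 1.5-fold, where 7780 of all 8193 listed genes were higher, and relative to the median of all listed genes 15 were higher and 3 lower. Without Atf3 and Cebpb the other 16 had the same kind of shift, a median log2 ratio of 1.11, with Jun at 2.85 [2.70 to 3.01] and Fos at 2.57 [2.42 to 2.73]. The part of either programme in the values of Atf3, Gdf15 and Cebpb was not tested.

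Among the amino acid genes, Psat1 (ENSMUSG00000024640, chromosome 19, 15904678 to 15947337) encodes phosphoserine aminotransferase, which makes serine from a glycolytic intermediate. It had 0.384 UMIs per KO cell [0.343 to 0.429] and 0.719 per WT cell [0.662 to 0.779], from 313 and 596 UMIs, a ratio of 0.534 [0.464 to 0.614]. It was the only member lower in KO cells by UMIs per cell, and had the 119th lowest ratio of all 8193 listed genes. Of 1473 listed genes of similar WT level, 1.29% had a lower ratio. Aars (ENSMUSG00000031960, chromosome 8, 111033144 to 111057664), which charges tRNA with alanine, did not follow it by UMIs per cell. It had 1.66 UMIs per KO cell [1.57 to 1.75] and 1.60 per WT cell [1.51 to 1.68], and its ratio of 1.04 [0.962 to 1.12] had an interval that included 1. Of 763 listed genes of similar WT level, 20.4% had a lower ratio than Aars, and the median ratio of these 763 was 1.21.

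**Figure D2:**
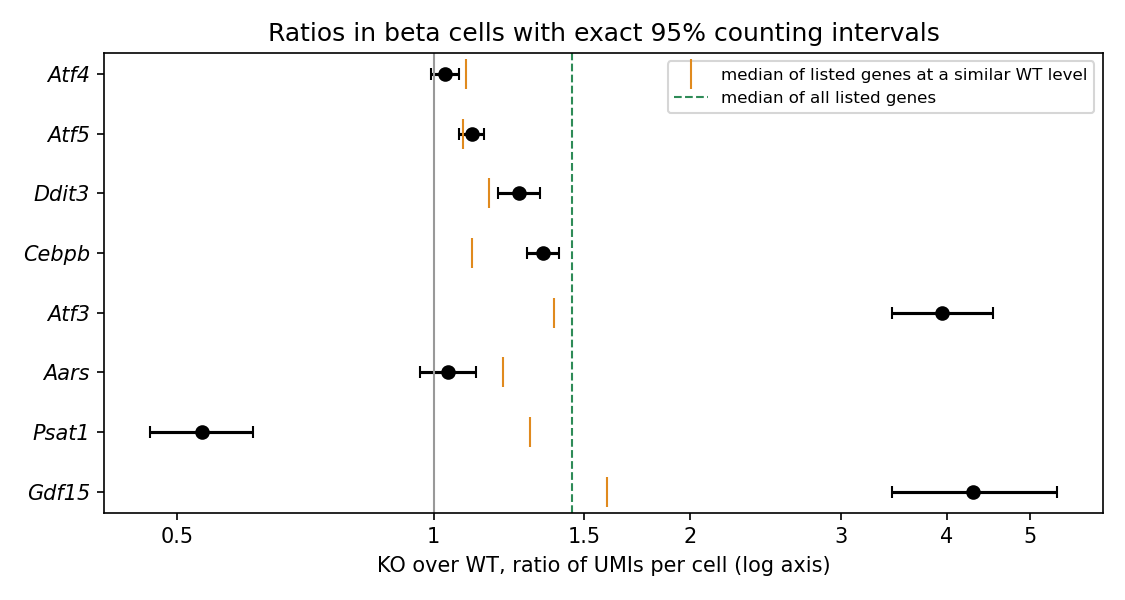
Ratio of KO over WT for each member in beta cells (black points with exact 95% counting intervals, log axis), beside the median ratio of listed genes within 1.5-fold of its WT level (orange ticks) and of all listed genes (dashed green line, 1.45). Atf3 and Gdf15 lie to the right of both medians and Psat1 to the left of both, while Atf4 and Aars have intervals that include 1.

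The factor genes had a median log2 ratio of 0.33 and the amino acid genes one of -0.42, a difference of 0.76 that does not depend on scaling, since both come from the same table. That difference is a description of 5 and 2 genes: the 5 factor genes spanned ratios from 1.03 to 3.94, and the amino acid pair from 0.534 to 1.04, so that Aars lay inside the range of the factors. Gdf15 and Atf3 lay above the 6 other members.

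Each member was also expressed per 100 UMIs of Atf4 in the same cells, which scales both groups to Atf4, a gene whose own log2 value relative to the median of all listed genes was -0.50. Gdf15 had 8.04 UMIs per 100 of Atf4 in KO cells and 1.93 in WT cells, and Atf3 had 19.6 in KO cells and 5.12 in WT cells. Psat1 had 5.91 in KO cells and 11.4 in WT cells, 0.518 [0.448 to 0.599] of the WT value. Relative to Atf4, Ddit3 was at 1.22 [1.14 to 1.31] and Cebpb at 1.30 [1.23 to 1.38] of the WT value, and Atf5 at 1.07 [1.02 to 1.13]. Aars followed Atf4, with 25.5 in KO cells and 25.3 in WT cells. These quotients are read between the groups only, since capture may differ between genes.

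**Figure D3:**
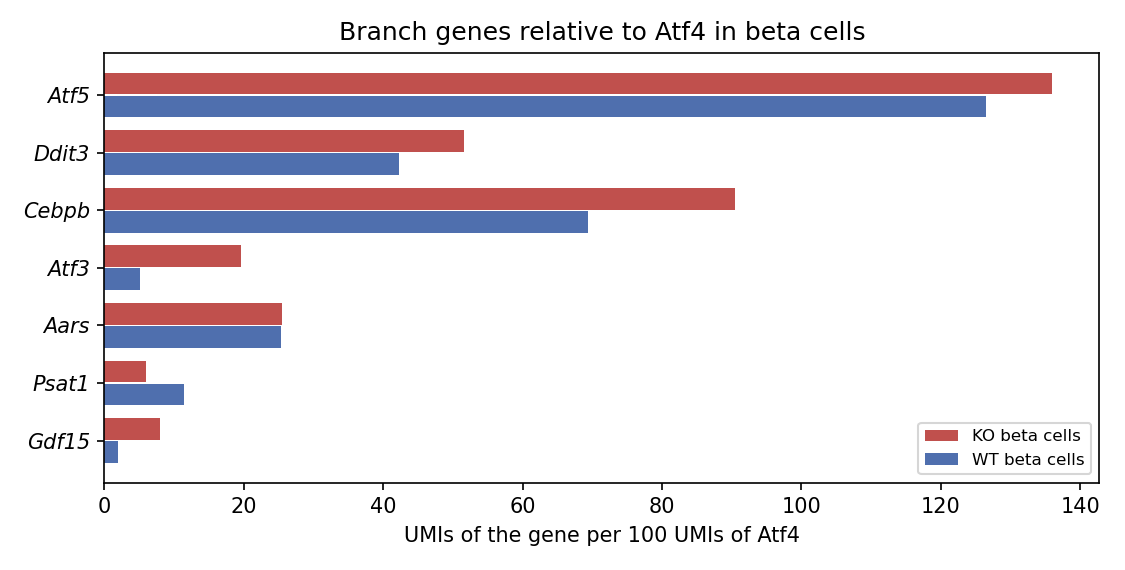
UMIs of each member per 100 UMIs of Atf4 in KO (red) and WT (blue) beta cells. The bars of Aars are nearly equal at 25.5 and 25.3, those of Atf3 and Gdf15 are longer in KO cells, and that of Psat1 is shorter in KO cells.

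The direction of most members depended on how KO and WT cells were put on 1 scale. By UMIs per cell 7 of 8 were higher in the KO. After scaling to the listed UMI total without Ins1, Ins2 and Iapp, 4 were higher (Atf3, Gdf15, Cebpb and Ddit3) and 4 lower, and after centring on the median of all listed genes 2 were higher and 6 lower. After scaling to the listed total, in which Ins1, Ins2 and Iapp weigh most, 7 were higher. Of these, 4 (Atf3, Gdf15, Cebpb and Ddit3) were higher by at least 1.5-fold, and no member was lower by that fold. Atf3 and Gdf15 were higher and Psat1 was lower under all 4 scalings. Relative to the median of all listed genes their log2 values were 1.44, 1.56 and -1.44, and the next farthest from 0 was Atf4 at -0.50.

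The rest of the branch was read from 6 lists of other genes, 93 in all, of which 41 were listed in beta cells. Of these, 34 had more UMIs per KO cell and 7 fewer, where 7780 of all 8193 listed genes had more. By a fold of at least 1.5, 12 were higher and 3 lower, or 7 and 7 after centring and 29 and 2 relative to the listed UMI total. For all 8193 listed genes the numbers were 3741 and 202, or 1314 and 343 after centring and 6816 and 112 relative to the listed UMI total. The 41 branch genes had a median log2 ratio of 0.35, against 0.54 over all listed genes, and 27 of the 41 lay below that median.

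Of 16 genes for eIF2α kinases, eIF2, its exchange factor eIF2B and their regulators, 9 were listed, all higher per cell, with 8 below the median of all listed genes. Ppp1r15a, which encodes GADD34, the stress-induced phosphatase subunit that reverses eIF2α phosphorylation, was highest at 1.68 [1.59 to 1.79]. Eif2ak1, the heme-regulated eIF2α kinase, was at 1.40 [1.11 to 1.77], and the eIF2 subunit genes Eif2s2 and Eif2s3x were at 1.19 and 1.13. Among them, Ppp1r15a alone passed the fold of 1.5, where 45.7% of all listed genes were higher by that fold. Eif2ak3, the gene of PERK itself, was not analysed here.

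Of 11 other transcription factors and regulators, 8 were listed, all higher per cell and 6 by at least 1.5-fold, with a median log2 ratio of 0.99. Over all 8193 listed genes 7780 were higher per cell, 45.7% by that fold, and the median log2 ratio was 0.54. Cebpa, a C/EBP factor of liver and fat, was highest at 6.27 [2.62 to 18.2], but rests on 37 UMIs in KO and 6 in WT cells. It lay below 0.03 UMIs per WT cell, where the median ratio of listed genes was 3.45. Jun was at 2.85; it and Fos are also immediate early genes. The lowest were Trib3, a pseudokinase induced by CHOP, at 1.18 [1.10 to 1.27], and Cebpg, a partner of ATF4, at 1.20 [1.13 to 1.27]. Both were below the median of all listed genes. The other 3, Nfe2l2, Crebrf and Nupr1, lay between 1.72 and 1.99; all 3 encode stress-responsive regulators of transcription.

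Of 18 stress and death effectors, 10 were listed, 9 of them higher per cell, where 7780 of all 8193 listed genes were. Relative to the median of all listed genes 3 were higher and 7 lower. Bbc3, which encodes the death protein PUMA, was at 2.81 [2.32 to 3.42]. Tnfrsf10b, the death receptor gene, was at 5.21 [2.41 to 12.9] from 41 KO and 8 WT UMIs. Both are p53 targets too. Tnfrsf10b lay below 0.03 UMIs per WT cell, where the median ratio of listed genes was 3.45. Ero1l, an ER oxidase known as a CHOP target, was the 1 lower gene, at 0.506 [0.470 to 0.544], and Sqstm1, an autophagy receptor, was at 1.03 [0.999 to 1.06]. The other 6, among them Herpud1 and Ddit4, lay between 1.28 and 1.48.

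Of 17 other genes of amino acid and folate-linked synthesis, 4 were listed, and 3 of the 4 were lower in KO cells, with a median log2 ratio of -0.71. They were Aldh1l2, a mitochondrial folate enzyme, at 0.453 [0.386 to 0.530]; Psph, which acts after Psat1 in serine synthesis, at 0.558 [0.507 to 0.614]; and Mthfd1l, another mitochondrial folate enzyme, at 0.671 [0.544 to 0.825]. Pycrl, of proline synthesis, was at 1.22. All 4 lay below the median of all listed genes, as Psat1 did, and the first 3 were lower by UMIs per cell as well as relative to that median.

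Of 20 other genes of tRNA charging and export, 5 were listed and none passed the fold of 1.5. Over all listed genes 45.7% were higher and 2.47% lower by that fold. Wars, for tryptophan, was lowest at 0.709 [0.659 to 0.764] and Qars, for glutamine, highest at 1.47 [1.26 to 1.72]. Sars, for serine, was at 0.935 [0.884 to 0.990] and Dars, for aspartate, at 1.13 [0.978 to 1.31]. Of 11 amino acid transporter genes, 5 were listed. Slc38a1 was at 5.98 [2.80 to 14.6] and Slc1a5 at 3.90 [2.29 to 6.96], from 8 and 18 UMIs in WT cells. Both lay below 0.03 UMIs per WT cell, where the median ratio of listed genes was 3.45. Slc3a2, the shared heavy chain of several transporters, was at 0.965 [0.908 to 1.03] and Slc38a2 at 1.09 [1.01 to 1.19].

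**Figure D4:**
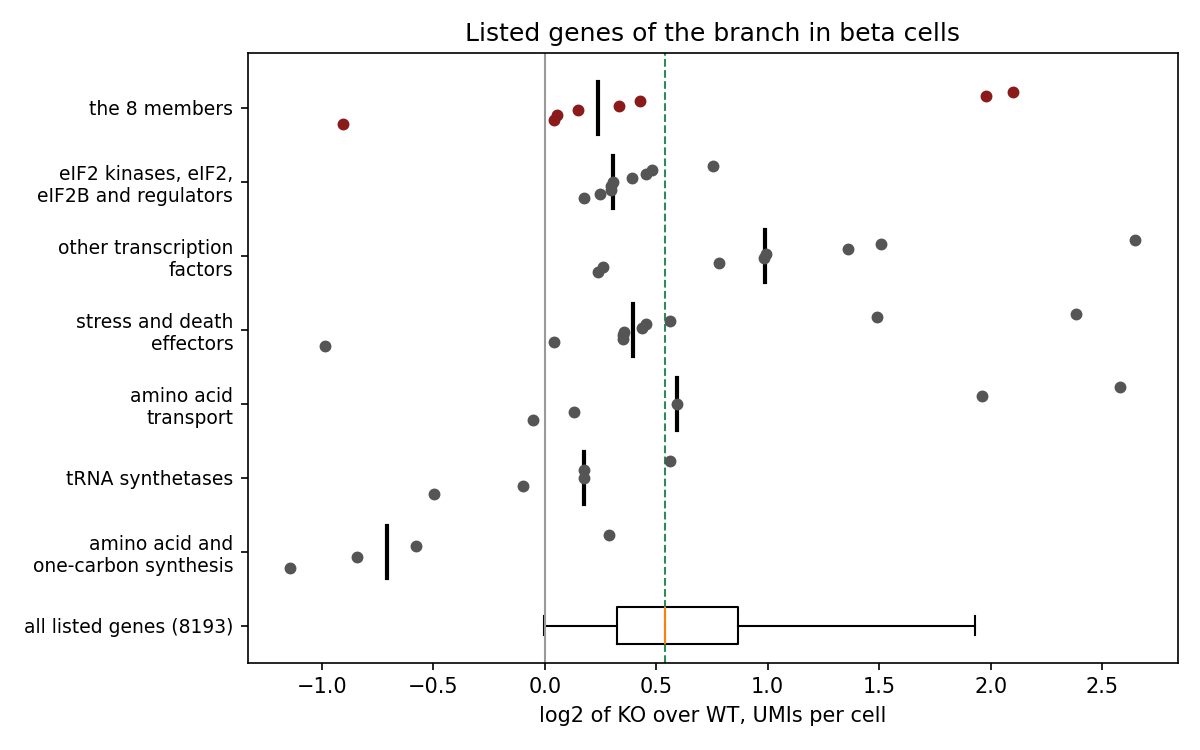
Log2 ratio of KO over WT (UMIs per cell) for the 8 members (dark red), for the listed genes of 6 other branch lists (grey) and for all 8193 listed genes (box from the lower to the upper quartile, whiskers at the 5th and 95th percentiles). Black bars are medians and the dashed line is the median of all listed genes at 0.54; the amino acid synthesis list has its median at -0.71 and the list of other transcription factors at 0.99.

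Genes most like 5 of the members were sought among those listed within 1.5-fold of the member's WT level, predicted genes (names of the Gm or Rik kind) left out, by the smallest difference in log2 ratio over the 1 comparison of beta cells. For Gdf15 these were Muc1 (4.16), Slc29a4 (4.13) and Prom1 (4.56), from 1325 genes. For Atf3 they were Trp53i11 (3.87), Rasgrf2 (3.85) and Txnip (3.55), from 1923 genes. For Psat1 they were Gmppb (0.536), Tnfrsf9 (0.540) and Rasgef1b (0.544), from 1432 genes. Ddit3 was matched by Sat1, Psmb8 and Nfe2l1, and Atf4 by Hnrnpa3, Bex2 and C2cd4b, all within 0.012 in log2 ratio.

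In alpha cells Cebpb was lower in both KO mice, opposite to beta cells by UMIs per cell. Relative to the median of all listed genes its value was below 0 in beta cells too (log2 -0.11). Among listed genes of similar WT level, however, 80.9% of 256 had a lower beta-cell ratio than Cebpb. Its beta-cell log2 value was 0.77 after scaling to the listed total, and 0.16 with Ins1, Ins2 and Iapp left out of that total. In alpha cells Cebpb had 1.64 UMIs per cell in the first KO column (499 UMIs in 304 cells) and 1.44 in the second (254 UMIs in 177 cells). The WT mouse had 3.11 (441 UMIs in 142 cells). Both KO values lay below the WT value, with counting intervals that did not overlap it. The KO mean was 1.54 ± 0.146 (SD, n = 2), 0.495 of the WT value, with 0.529 and 0.462 in the single mice. By a fold of at least 1.5, 30.1% of the 186 genes listed in alpha cells were lower and 10.8% higher, and Cebpb had the 22nd lowest ratio. Relative to the median of the genes listed in alpha cells its log2 value was -0.72. With the mouse as the unit, limma on log2 values gave Cebpb an adjusted p of 0.173 (Benjamini-Hochberg over the 186 genes; unadjusted p = 0.0106). That fit has 1 residual degree of freedom and takes the WT mouse to vary like the KO mice, and an exact permutation of 3 mice cannot go below p = 0.333.

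Across the 5 populations, Cebpb was highest in KO beta cells (5.88), then in WT beta cells (4.38), WT alpha cells (3.11) and the alpha cells of the first and second KO column (1.64 and 1.44). The counting intervals of neighbours in this order overlapped only between the KO alpha columns. These levels are not scaled for depth between cell types. Listed immediate early genes of alpha cells went both ways: Egr1 was higher in both KO mice (4.94 and 3.99 UMIs per cell, against 3.27 in WT) and Klf4 lower (0.434 and 0.282, against 0.676). Of the transcripts of other islet cells listed in the same alpha cells, Ppy was at 341 and 323 UMIs per cell in the KO columns against 427 in WT, and Ins2 at 160 and 151 against 214. Ins1, Iapp and Rbp4 were also lower in both KO columns, whereas Sst was at 12.1 and 42.0 against 36.8 in WT, lower in the first KO column and higher in the second. Their part in the value of Cebpb was not tested.

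**Figure D5:**
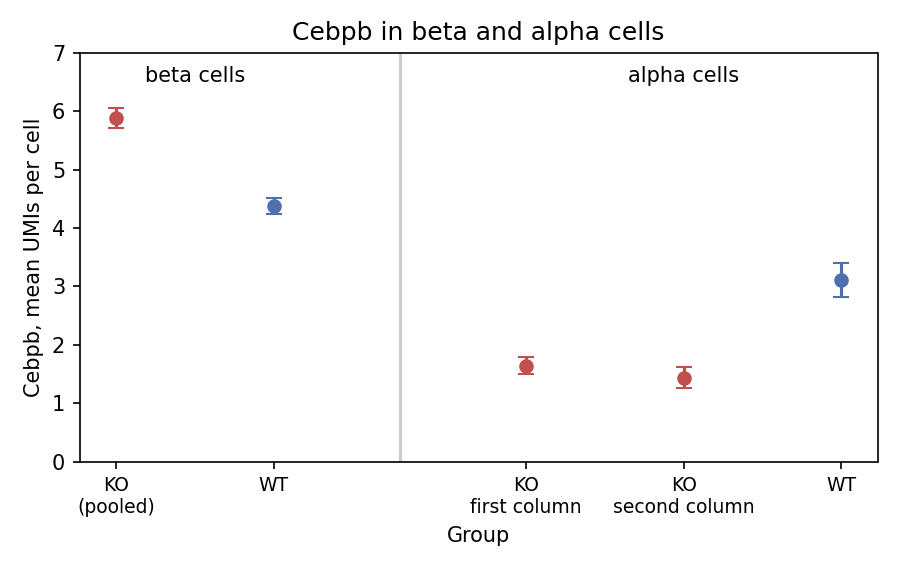
Mean UMIs per cell of Cebpb in beta cells (KO pooled, WT) and in alpha cells (each KO column, WT), with exact 95% Poisson intervals of counting error. The KO point lies above WT in beta cells (5.88 and 4.38), and both KO points lie below WT in alpha cells (1.64 and 1.44, against 3.11).

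No other member was listed in alpha cells, and of the other branch genes Adm2, a peptide hormone gene of the ATF4 response, was listed alone. It had 0.247 and 0.0452 UMIs per cell in the KO columns and 0.296 in WT, and the value of the second KO column rests on 8 UMIs. In delta cells none of the 8 members was listed, where 41.1% of the 231 listed genes were higher and 16% lower by a fold of at least 1.5. Of the other branch genes, Fos was at 5.88 and 6.88 UMIs per cell in the KO columns and at 2.96 in WT, and Slc7a3, a cationic amino acid transporter gene, had 1 UMI in each KO column and 17 in WT, which is 0.00725 and 0.0128 UMIs per cell against 0.168. Both KO columns lay above WT for Fos and below it for Slc7a3. The other 6 listed immediate early genes, Btg2, Egr1, Ier2, Junb, Jund and Zfp36, were also higher in both KO columns. By the KO mean, 188 of all 231 genes listed in delta cells were higher. Relative to the median of those 231 genes, the log2 values of these 6 ranged from 0.12 (Jund) to 0.83 (Btg2). In the same delta cells the alpha markers Gcg (159 and 63.5 UMIs per cell in the KO columns, against 10 in WT) and Ttr (4.36 and 2.58, against 1.01) were higher. The delta marker Rbp4 (84.2 and 69.1, against 137) and the beta marker Iapp (797 and 698, against 1825) were lower. Their part in the values of Fos and Slc7a3 was not tested. The delta-cell values rest on 138 and 78 KO cells and 101 WT cells.

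Transcripts of other cell types differed in the same beta cells. The 6 listed of 9 beta-cell markers were all lower in KO cells, with 13364 UMIs per KO cell and 22059 per WT cell in sum. Listed alpha (3 of 6), delta (3 of 4) and PP (2 of 2) markers were all higher and summed to 113, 64.6 and 107 UMIs per KO cell, against 48.8, 39.6 and 21.7 per WT cell. Over all 8193 listed genes 7780 were higher and 413 lower, with a median ratio of 1.45. The alpha, delta and PP markers all lay above that median, the nearest being Sst at 1.61. The 3 listed of 5 red blood cell markers summed to 22.6 per KO cell and 0.0639 per WT cell, and the 4 listed of 7 duct markers to 68.8 and 38.0. Mesenchymal (4 of 6), endothelial (2 of 6) and immune (3 of 9) markers each summed to under 1 UMI per cell. The sums were 0.117, 0.363 and 0.415 in KO cells and 0.00844, 0.192 and 0.586 in WT cells. The endothelial and immune markers went both ways. Cd68 was lower (0.0577 per KO cell, 0.409 per WT cell), whereas Cd74 (ratio 1.96) and Lyz2 (10 KO and 1 WT UMIs) were higher. Pecam1 was higher (ratio 2.06), whereas Cdh5 was lower, from 1 KO and 13 WT UMIs. Of the 12 acinar markers Reg3b alone was listed, at 0.114 in KO cells and listed at 0 in WT cells, as were the mesenchymal genes Col1a1 and Dcn. The part of such transcripts in the members' values was not tested. The alpha label could not be checked against Gcg, nor the delta label against Sst, since neither is listed in its own table.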

How the data were processed

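Per the labels, islets were digested with collagenase, cultured overnight and dissociated with accutase, and libraries followed 10X Genomics protocols. The submitters' processing notes name Cell Ranger 3.0.0 and mm10. How cells were filtered and typed, how doublets and free RNA were treated and which test was used are not stated there. Culture and dissociation can alter stress and immediate early genes.

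The deposited signal values are mean UMIs per cell, not scaled for depth. This was worked out from the values, which times the cell number were whole within 0.001 UMIs for 99.99% (WT beta) or 100% (all other columns) of genes. KO columns are numbered but not tied to a sample. The adjusted p-values deposited by the authors, at most 0.00998 (beta), 0.0101 (alpha) and 0.0103 (delta), were only quoted. Gene names turned into dates (13) were restored by Ensembl identifier, and coordinates came from GENCODE M21 (mm10), which held 8190 of the 8193 beta identifiers.

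Ratios have no pseudocount, and a group at 0 was set to 3 UMIs over its cells. Intervals are Clopper-Pearson on the split of UMIs, or exact Poisson for a level, at 95%, and cover counting error only. On simulated beta data of 8098 genes, drawn with counting error only, 95.7% of intervals held the truth. That checks the computation of the intervals and not the spread between mice. With 1 beta column per group no count test could be fitted. In alpha cells limma 3.58.1 (R 4.3.3) was run on log2(UMIs per cell + 0.18), and on simulated data of 186 genes it recovered all 40 changed by a log2 of 1, with 4 false calls. That alpha simulation set a small spread between mice, of 1 size for every gene, so its recovery does not give the power in the real data. The real KO columns differed widely for some genes, such as Sst at 12.1 and 42.0 UMIs per alpha cell. Other computations used Python 3.11.15 and scipy 1.17.1.

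Named by rule were the members, the 2 highest and 2 lowest listed genes of each of 6 branch lists, the 3 genes most like each of 5 members, and listed branch genes of alpha and delta cells. Other genes named were chosen after their values were seen. Members and lists were chosen with earlier results of these data known. Alternatives were a fold of 2, other scalings, a pseudocount, a filter on low values and leaving out a KO mouse.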

Additional observations from a re-analysis of the deposited data

Results flagged for a closer look

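Cebpb differed in direction between cell types: alpha cells of both KO mice lay below the WT mouse (0.495 of WT in the mean), whereas pooled KO beta cells lay above WT at a ratio of 1.34. The difference between the cell types was not tested. Relative to the median of all listed genes the beta-cell value was below 0 as well, at -0.11 on the log2 scale. Among listed genes of similar WT level, however, 80.9% of 256 had a lower beta-cell ratio than Cebpb.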

How the results depend on the processing

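The count of members past a fold of 1.5 in beta cells (3) stayed between 2 and 4 under a fold of 2, 3 scalings, a small pseudocount (0.0519 UMIs per cell) and a filter on low values. The count of other branch genes (15) became 8 with a fold of 2 and 31 after scaling to the listed total, and lay between 10 and 14 otherwise. The factor median minus the amino acid median (0.76) ranged from 0.66 to 1.01 with a pseudocount, with means, and with each factor left out. Of 32 values of single members under 3 scalings and the pseudocount, 24 moved beyond the counting interval, and no member past the fold of 1.5 changed sign. Leaving out either KO mouse left Cebpb past the fold of 1.5 in alpha cells, at -1.11 and -0.92 on the log2 scale. The planned edgeR fit was not run in alpha cells, where too few low values allowed a check of recovered UMIs; limma, added after the data were seen, called 0 genes higher and 1 lower (S100a9) after adjustment; by unadjusted p under 0.05 the numbers were 6 and 32. No paired analysis was possible because there was 1 WT mouse. Depth limits the genes with few WT UMIs, such as Cebpa (6), Slc38a1 (8) and Tnfrsf10b (8).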
